A study of Penaeus vannamei with 11 samples.

Results

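The genes described here are 41 of the 18803 genes measured in hemocytes, the circulating blood cells, of the Pacific white shrimp *Penaeus vannamei*. They were chosen by the words in their deposited names: glucan-binding, Gram-negative, peptidoglycan, alpha-2-macroglobulin, thioester, CD109, Dscam or Down syndrome cell adhesion. By name, 26 of the 41 belong to families grouped here as pattern recognition proteins, a function that the names themselves do not state. They are 8 beta-1,3-glucan-binding proteins, 5 alpha-2-macroglobulins, 4 CD109 antigens and 9 Down syndrome cell adhesion molecules (Dscam). The other 15 matched a word but carry the name of another kind of protein: 12 thioesterases, 1 alpha-2-macroglobulin receptor-associated protein and 2 lysM domain proteins. No gene was named as a peptidoglycan recognition protein or a Gram-negative binding protein, so the label of soluble pattern recognition held for a part of the genes only.

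The study compared males with females and shrimp given *Vibrio parahaemolyticus* with controls. Of the 11 libraries, the control females gave 3 and the control males 2, which carry the numbers 2 and 3, while females and males given Vibrio gave 3 each. Hemolymph was drawn into anticoagulant and the pelleted cells were lysed in Trizol. All 11 samples, controls included, carry the same treatment label, "immune", and only the agent label separates them. The sources do not state the strain or age of the animals, how much Vibrio was given, how or how long before sampling, or whether a library was 1 animal or a pool. P-values therefore measure only the spread between these samples, which may be technical.

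Pattern recognition proteins bind molecules that microbes carry and host cells lack. In crustaceans, beta-1,3-glucan-binding proteins bind glucans of fungal and algal walls and feed into the prophenoloxidase cascade, which ends in melanin. The name covers a plasma lipoprotein known from the hepatopancreas, the digestive gland, and a smaller protein related to glucanases, and the deposited names do not say which of them a gene encodes. Alpha-2-macroglobulins and CD109 antigens belong to the thioester-containing proteins, which trap proteases or attach to surfaces through a reactive bond. Dscam is an immunoglobulin superfamily receptor that guides neurons and that arthropod hemocytes splice into many forms.

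Depth ran from 39733829 to 53837438 counts per library. The 26 pattern recognition genes took 0.00966 to 0.0392% of them. Levels across libraries are given as CPM, counts scaled to a common library size by TMM, and levels between genes as the deposited FPKM, which divides by gene length. Between 1 and 20, 61.3 to 68.2% of a library's counts were even, so a count was not 1 independent fragment, and the limit that a count of 0 allows, 3 counts or 0.0557 to 0.0755 CPM, covers counting error only. Of the 41 genes, 30 passed the filter on low counts and were tested, and 11 were not. The 6 hemocyte markers (penaeidins, crustins, a hematopoietic factor and astakine) all had counts, and summed to 13890 to 30190 CPM in control females, 17720 to 20910 CPM in control males, 10410 to 13350 CPM in Vibrio females and 19310 to 23020 CPM in Vibrio males. All 3 Vibrio females lay below every other library in that sum.

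**Figure D1:**
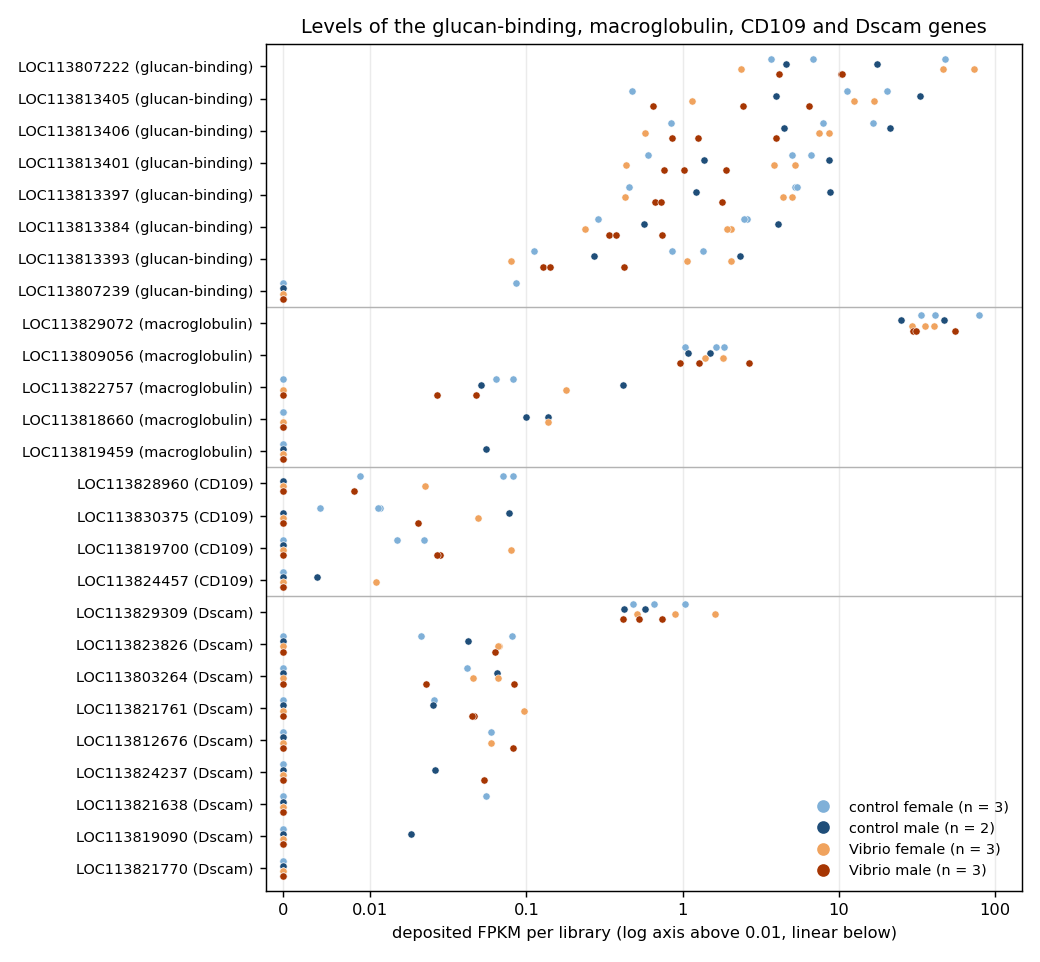
Deposited FPKM of the 26 pattern recognition genes (x axis, logarithmic above 0.01 and linear below) in each of the 11 libraries, with 1 point per library coloured by group. LOC113829072 lies between 25.0 and 78.8 FPKM, the tested glucan-binding genes spread over the 11 libraries by 16.3-fold or more in CPM, and most CD109 and Dscam points sit at or near 0.

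Among the glucan-binding genes, 7 of 8 were tested, and 6 of them lie together on 1 scaffold. That scaffold carries 23 gene models in the deposited table, of which 17 fall between the outer ends of the 6 genes, a span of 195.6 kb. It also holds 4 of the 6 genes in the whole table named apolipophorins-like, the insect name for the protein part of lipid-carrying particles. The gene model of LOC113813393 lies inside that of LOC113813397 on the same strand, so their reads cannot be told apart with certainty. LOC113813405 and LOC113813406 are separated by 85 bases on the opposite strand to the other 4. The names of these genes are shared, and reads could also be split between near-identical copies. The sources do not name the genome build, so only distances are given.

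**Figure D2:**
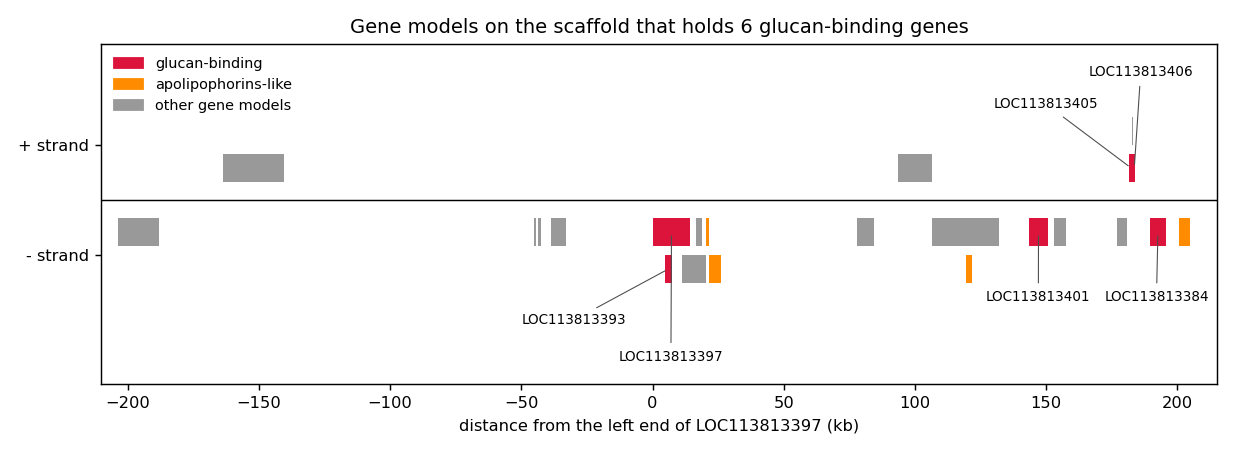
Gene models on the scaffold with 6 glucan-binding genes, drawn to scale by distance from the left end of LOC113813397 (x axis, kb) and by strand (y axis); overlapping models are drawn on separate lines. The 6 glucan-binding genes span 195.6 kb, and 4 apolipophorins-like genes lie among or beside them.

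All 6 scaffold genes were high and low in the same libraries. LOC113813401, named beta-1,3-glucan binding protein, had 4.77, 38.1 and 58.2 CPM in control females, 13.0 and 68.8 CPM in control males, 41.7, 3.69 and 29.4 CPM in Vibrio females and 5.88, 15.5 and 8.16 CPM in Vibrio males. LOC113813405, of the same name, had 0.655, 26.4 and 17.2 CPM in control females, 6.45 and 45.7 CPM in control males, 23.2, 1.69 and 16.7 CPM in Vibrio females and 0.870, 9.21 and 3.401 CPM in Vibrio males. Both genes were lowest in control female 1, Vibrio female 2 and Vibrio male 1 and highest in control male 3, and the female groups overlapped.

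The same 3 libraries were the lowest, and the same 5 the highest, for each of the 6 genes. The 5 highest were control females 2 and 3, control male 3 and Vibrio females 1 and 3, so they came from 3 of the 4 groups. The highest library exceeded the lowest by 16.3-fold for LOC113813384 and by 69.8-fold for LOC113813405, with the other 4 genes between. The SD of log2 CPM over all 11 libraries was 1.47 to 2.06 for these 6 genes, against a median of 0.473 over all genes tested.

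The genes did not keep a fixed ratio. Relative to the counts of LOC113813401, the counts of LOC113813384 were 0.306 to 0.446 over the 11 libraries, a narrow range, and those of LOC113813397 were 0.659 to 1.04. The ratio was wider for LOC113813405, from 0.137 in control female 1 to 0.694 in control female 2, for LOC113813393, from 0.0442 to 0.181, and for LOC113813406, from 0.138 to 0.402. Per gene length, LOC113813405 was the most abundant of the 6 on average (9.94 FPKM), followed by LOC113813406 (6.72 FPKM), LOC113813401 (3.23 FPKM), LOC113813397 (3.11 FPKM), LOC113813384 (1.42 FPKM) and LOC113813393 (0.799 FPKM). Neighbours in that order overlapped over the libraries.

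Summed transcripts known from the hepatopancreas were lowest in the same 3 libraries as the scaffold genes. The 28 hemocyanin genes, which encode the oxygen carrier of the plasma, summed to 33.2 to 1292 CPM in control females, 576 to 2299 CPM in control males, 78.6 to 1494 CPM in Vibrio females and 16.6 to 333 CPM in Vibrio males, and 27 of the 28 had a count. The 73 digestive enzyme genes summed to 424 to 791 CPM in control females, 503 to 660 CPM in control males, 415 to 1296 CPM in Vibrio females and 396 to 577 CPM in Vibrio males, and 70 of the 73 had a count. At 0 in every library were the hemocyanin F chain-like gene LOC113818022, the lipase genes LOC113806750 and LOC113818244 and the chymotrypsin gene LOC113824806. Both sums were lowest in the same 3 libraries as the scaffold genes. The digestive enzyme sum varied less, from 395.5 to 1296 CPM over the libraries against 16.6 to 2299 CPM for hemocyanin. Its most abundant gene, the lipase LOC113801959, ran from 52.9 to 268 CPM. The next, carboxypeptidase B-like LOC113825742 and chymotrypsin A-like LOC113817651, ran only from 54.4 to 112.9 CPM and from 33.8 to 57.8 CPM. Their upper ends differed from those of the scaffold genes. The hemocyanin sum was higher in control male 2 (576 CPM) than in control female 3 (495.5 CPM). The digestive enzyme sum was higher in Vibrio male 3 (577 CPM) than in Vibrio female 3 (554.7 CPM). The part of these transcripts in the levels of the glucan-binding genes was not tested, and in bulk RNA fewer cells of a type and less RNA per cell cannot be told apart.

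Over the 11 libraries, log2 CPM of the 6 scaffold genes correlated with the log2 hemocyanin sum at a Pearson r of 0.863 (LOC113813401) to 0.962 (LOC113813405) and a Spearman rho of 0.818 to 0.936. The permutation p for r, two-sided and adjusted by Benjamini-Hochberg over 14 relations, was 0.00021 to 0.00128, and that for rho 0.00112 to 0.00415. Without control female 1 and Vibrio male 1, the libraries farthest from the median of the hemocyanin sum, r was 0.871 to 0.945, and with group means removed it was 0.871 to 0.961. With the digestive enzyme sum r was 0.644 to 0.755 (adjusted permutation p 0.00666 to 0.0261) and rho 0.736 to 0.873 (adjusted permutation p 0.00315 to 0.0148). Without control female 3 and Vibrio female 1, r with that sum was 0.805 to 0.891. These relations were chosen after the values had been seen, and the points share library depth and composition.

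The apolipophorins-like neighbours on the scaffold were sparse, and they are given because their position was seen afterwards. LOC113813392 and LOC113813407 were each highest in Vibrio female 3, at 7.65 and 4.72 CPM, and both were listed at 0 in control female 1. LOC113813392 was also at 0 in Vibrio female 2. Their 5 highest libraries were those of the 6 glucan-binding genes, but their 3 lowest were not. In both genes the lowest included Vibrio male 3, at 0.0773 and 0.1353 CPM, and not Vibrio male 1. LOC113813407 also had control male 2 among its 3 lowest, in place of Vibrio female 2. In Vibrio male 1 the genes were at 0.151 and 0.265 CPM. Values this low rest on few counts, beside a limit for a count of 0 of 0.0557 to 0.0755 CPM. The order of the lowest libraries is therefore uncertain.

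LOC113807222, named beta-1,3-glucan-binding protein, lies on another scaffold and was the most abundant glucan-binding gene per length, at 20.7 FPKM on average (2.36 to 73.3 FPKM). It had 9.78, 4.99 and 75.6 CPM in control females, 7.76 and 24.9 CPM in control males, 105, 3.56 and 64.1 CPM in Vibrio females and 14.3, 6.14 and 15.1 CPM in Vibrio males. Its order of libraries differed from that of the scaffold genes: control female 2, among their 5 highest, was among its 3 lowest. Its r with the hemocyanin sum was 0.401 (adjusted permutation p = 0.222, n = 11 libraries). Its r with the digestive enzyme sum was 0.721 (adjusted permutation p = 0.0117) and its rho 0.645 (adjusted permutation p = 0.0403). Without control female 3 and Vibrio female 1, the highest libraries in that sum, r was 0.337 (permutation p = 0.38), so r depended on those libraries. The neighbour LOC113807239, 66.65 kb away, had 4 counts in 1 library and was not tested.

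A gene chosen after its values were seen had the same 3 highest libraries as LOC113807222; its name is shared by neighbouring genes, so reads could be split. The hemolymph clottable protein-like gene LOC113819746, whose product forms the clot in crustacean plasma, had 93.8, 40.5 and 220 CPM in control females, 55.5 and 47.8 CPM in control males, 301, 83.7 and 165 CPM in Vibrio females and 95.8, 41.3 and 45.2 CPM in Vibrio males. Vibrio female 1, control female 3 and Vibrio female 3 led in both genes. The share of all genes with these 3 highest libraries is not given, and a relation between the genes was not tested.

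**Figure D3:**
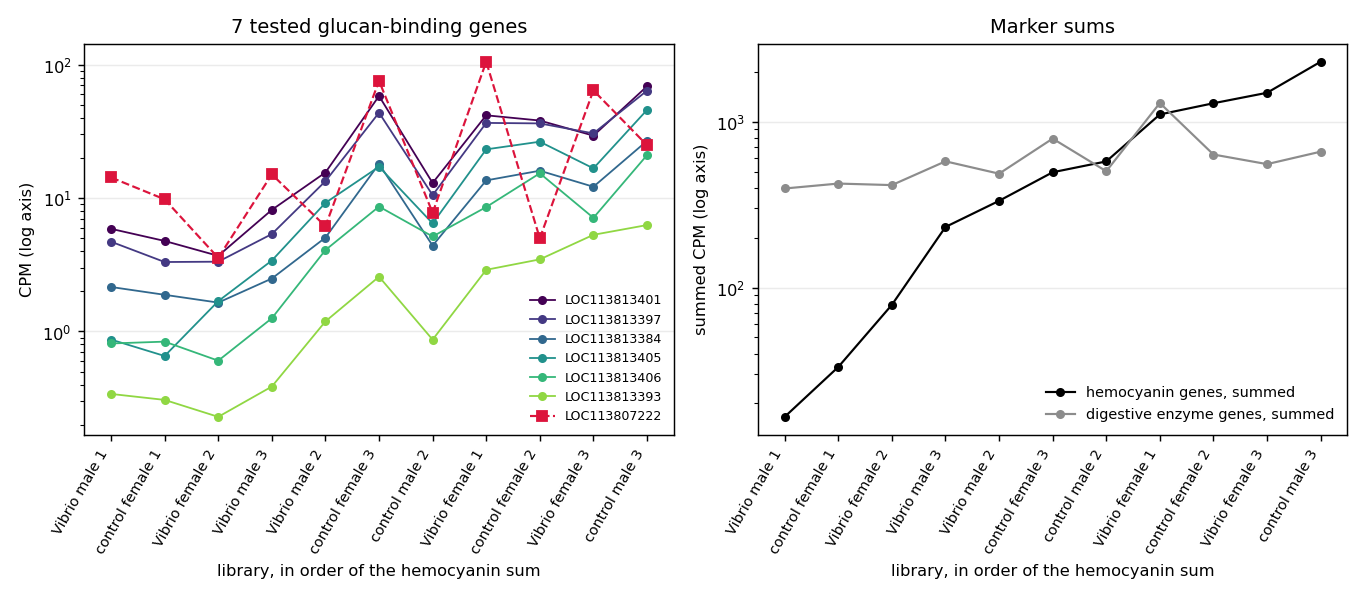
Left, CPM (log axis) of the 7 tested glucan-binding genes in the 11 libraries, ordered by the hemocyanin sum; right, summed CPM (log axis) of the 28 hemocyanin and 73 digestive enzyme genes in the same order. The 6 scaffold genes (circles) run from their lowest levels in Vibrio male 1, control female 1 and Vibrio female 2 to their highest in control male 3, while LOC113807222 (squares) reaches 105 CPM in Vibrio female 1 and 4.99 CPM in control female 2.

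The alpha-2-macroglobulins were led by a single gene. LOC113829072 averaged 40.8 FPKM, and the next, LOC113809056, averaged 1.55 FPKM (0.968 to 2.67 FPKM). LOC113829072 had 176, 87.8 and 83.2 CPM in control females, 66.3 and 106 CPM in control males, 80.8, 70.2 and 88.1 CPM in Vibrio females and 120, 69.8 and 70.4 CPM in Vibrio males. Control female 1 and Vibrio male 1, which were low for the glucan-binding scaffold genes, were the highest for this gene, and all groups overlapped. The SD of log2 CPM was 0.422 for LOC113829072 and 0.436 for LOC113809056, below the median of 0.473 over all genes tested.

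The other 3 macroglobulin genes were barely counted. LOC113822757 had 0 to 116 counts per library, with its highest value, 2.30 CPM, in control male 3, the library that also led the scaffold glucan-binding genes. LOC113818660 had at most 6 counts and LOC113819459 16 counts in 1 library, control male 3 again. In the RefSeq annotation of another assembly, ASM4276789v1, 29 of the 41 genes were matched. There, 4 of the 5 macroglobulin genes and 1 CD109 gene lie on the same chromosome. Of the 6 scaffold glucan-binding genes, 0 were matched anywhere in that annotation, so their place in it is not known.

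The receptor-associated gene LOC113806998, whose counterpart in mammals is a chaperone for receptors that clear macroglobulin complexes, was as abundant as LOC113829072 per length, at 40.8 FPKM (30.0 to 49.3 FPKM). It had 53.4, 68.2 and 69.9 CPM in control females, 95.5 and 80.4 CPM in control males, 74.3, 93.3 and 66.7 CPM in Vibrio females and 68.0, 82.6 and 71.5 CPM in Vibrio males. Both control males lay above all 3 control females, and the other groups overlapped.

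The 4 CD109 genes were at the edge of detection, with 0 to 29 counts in a library and mean levels of 0.00135 to 0.0175 FPKM. LOC113828960 was counted in control females (25, 4 and 29 counts) and at 0 in both control males, where the limit of 3 counts applies. Vibrio females had 0, 8 and 0 counts of it and Vibrio males 3, 0 and 0. No fold is given for this gene where a group was at 0.

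Of the 9 Dscam genes, LOC113829309, named Dscam2, was the only one counted in all 11 libraries, with 193 to 935 counts (0.414 to 1.62 FPKM). It had 11.5, 5.14 and 8.17 CPM in control females, 5.59 and 6.41 CPM in control males, 18.3, 6.11 and 9.71 CPM in Vibrio females and 7.998, 4.82 and 6.01 CPM in Vibrio males. The highest library was Vibrio female 1, and the groups overlapped. The other 8 Dscam genes had 0 to 30 counts in a library, and LOC113821770 was at 0 in all 11. The 34 nervous system marker genes, given because Dscam is also a neuronal gene, summed to 255 to 487 CPM, with 33 of 34 counted and LOC113819481 at 0; their part in the Dscam counts was not tested. The table has 1 value per gene, so the splice forms of Dscam were not analysed here.

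Over the 11 genes that were not tested, 97 of 121 values were 0, and 21 of the 24 others were even numbers.

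The 12 thioesterases, enzymes that cut thioester or ubiquitin bonds and share only a word with the thioester proteins, were all tested. Their SD of log2 CPM was 0.139 to 0.664. The most abundant and steadiest was LOC113822943, a putative acyl-protein thioesterase 2, at 55.8 FPKM on average. It had 88.0, 91.4 and 98.3 CPM in control females, 105 and 98.9 CPM in control males, 98.8, 114.5 and 86.1 CPM in Vibrio females and 106.5, 115 and 97.9 CPM in Vibrio males. Both control males lay just above the control females, and its SD of 0.139 was lower than that of all but 1.93% of the genes tested. The lysM genes, whose domain binds peptidoglycan, averaged 5.03 FPKM (LOC113807121) and 3.08 FPKM (LOC113822897). LOC113807121 had 22.0, 12.6 and 13.4 CPM in control females, 16.5 and 13.4 CPM in control males, 10.8, 13.4 and 19.6 CPM in Vibrio females and 15.9, 14.8 and 12.8 CPM in Vibrio males, with all groups overlapping.

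In females, 0 of the 30 tested genes passed an adjusted p under 0.05 for Vibrio against control by edgeR's quasi-likelihood test, nor did any gene of the whole table (0%). DESeq2 called 0 of the 30 and 0.148% of all genes. Without adjustment, 1 of the 30 was under 0.05, against 4.05% of all genes, and DESeq2 had 1, against its own 5.46% of all genes. The 30 genes split into 17 higher and 13 lower, with a median log2 fold change of 0.11 against 0.05 over all genes, and the 15 tested pattern recognition genes into 8 and 7. No gene was higher in every Vibrio female than in every control female (2.48% of all genes) and 1 was lower (3.9%). That gene was the ubiquitin thioesterase trabid LOC113826843, a deubiquitinase in mammals, with 45.1, 37.1 and 38.7 CPM in control females and 28.5, 30.9 and 32.9 CPM in Vibrio females. Its log2 fold change was -0.39 (SE 0.16, edgeR adjusted p = 0.986). The hemocyte marker sum was also lower in every Vibrio female than in every control female, and its part in the levels of LOC113826843 was not tested. LOC113829072 was at -0.54 (SE 0.34, edgeR adjusted p = 0.986), and at -0.10 without control female 1. The 6 scaffold glucan-binding genes were at -0.61 to 0.41 (SE 0.94 to 1.28).

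In males, edgeR called 0 of 30 and 0% of all genes, and DESeq2 0 of 30 and 0.0776% of all genes. Without adjustment, 0 of 30 were under 0.05, against 2.41% of all genes, and DESeq2 had 3, against its own 3.69%. A fit of the male libraries alone, planned as an alternative, tested 28 of the genes and put 5 under an unadjusted 0.05, against 6.35% of all genes, and called 0 after adjustment (0% of all genes). All 6 scaffold glucan-binding genes had lower fitted levels in Vibrio males, with log2 fold changes of -2.67 to -2.05 (SE 1.05 to 1.44, edgeR adjusted p = 0.933). LOC113813384 was at -2.27 (SE 1.05) and LOC113813406 at -2.67 (SE 1.23), each with an edgeR adjusted p of 0.933. Without control male 3, the library highest for all 6 genes, they were at -0.44 and -1.33. With the hemocyanin sum as a covariate, chosen after seeing the data, LOC113813384 turned to 0.0402 and LOC113813406 was at -0.0756, and with the digestive enzyme sum they were at -1.49 and -1.92. LOC113813406 had 5.15 and 21.0 CPM in control males and 0.813, 4.08 and 1.26 CPM in Vibrio males, so the groups did not overlap, whereas in LOC113813384, at 4.40 and 26.8 against 2.16, 5.05 and 2.49 CPM, they did. The hemocyanin sum was also lower in all 3 Vibrio males than in both control males. Of the 30 genes, 3 were higher in every Vibrio male than in both control males (13.3% of all genes) and 2 were lower (11.5%). The 3 higher were the thioesterases LOC113807277, LOC113820860 and LOC113826843, and the 2 lower LOC113813406 and LOC113822757. LOC113822757 had 12 and 116 counts in control males and 0, 8 and 14 in Vibrio males. Its counts overlapped, and it separated only after scaling, at 0.347 CPM in control male 2 against 0.271 CPM in Vibrio male 3.

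For the difference between the Vibrio effects in males and females, edgeR called 0 of 30 and 0% of all genes, and DESeq2 0 of 30 and 0.197% of all genes. Without adjustment, 1 of 30 was under 0.05, against 5.6% of all genes, and DESeq2 had 2, against its own 7.77%. The gene under 0.05 by edgeR was LOC113826843, whose libraries lay lower with Vibrio in all females and higher in all males (32.1 and 32.8 CPM in control males, 45.1, 36.5 and 39.6 CPM in Vibrio males), and the difference was 0.70 (SE 0.24, edgeR adjusted p = 0.74). The receptor-associated gene LOC113806998 had a difference of -0.54 (SE 0.28, edgeR adjusted p = 0.74). The scaffold genes had differences of -2.89 to -1.62 (SE 1.40 to 1.92, edgeR adjusted p = 0.74 to 0.776).

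Between control males and control females, edgeR called 0 of 30 and 0% of all genes, and DESeq2 0 of 30 and 0.0705% of all genes. Without adjustment, 1 of 30 was under 0.05, against 4.88% of all genes, and DESeq2 had 1, against its own 6.94%. The gene under 0.05 by edgeR was LOC113806998, at a log2 fold change of 0.46 (SE 0.21, edgeR adjusted p = 0.756). The thioesterase superfamily member LOC113816597 had 25.2, 34.0 and 31.6 CPM in control females and 51.6 and 34.2 CPM in control males, for a log2 fold change of 0.50 (SE 0.26, edgeR adjusted p = 0.756) that was 0.17 without control male 2. Of the 30 genes, 3 were higher in both control males than in every control female (9.54% of all genes), namely LOC113806998, LOC113816597 and LOC113822943. Another 2 were lower (11.8%), LOC113826843 and the sparse CD109 gene LOC113828960. LOC113828960 had 25, 4 and 29 counts in control females and at most 8 in any other library. It passed the filter on low counts only through the group where it was high, so its place among the lower genes is not a result.

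Between Vibrio males and Vibrio females, edgeR called 0 of 30 and 0% of all genes, and DESeq2 0 of 30 and 0.0935% of all genes. Without adjustment, 1 of 30 was under 0.05, against 3.4% of all genes, and DESeq2 had 1, against its own 5.06%. The gene under 0.05 by edgeR was LOC113826843 again, at 0.39 (SE 0.16, edgeR adjusted p = 1.0), and it was the 1 gene higher in every Vibrio male than in every Vibrio female (4.82% of all genes), while 0 were lower (2.95%). The hemocyte marker sum was likewise higher in every Vibrio male than in every Vibrio female, and its part was not tested. Between Vibrio males (19310 to 23020 CPM) and control males (17720 to 20910 CPM) that sum overlapped. It also overlapped between control males and control females (13890 to 30190 CPM). LOC113826843 did not overlap in either of these comparisons. LOC113829309, the counted Dscam gene, was at -0.86 (SE 0.42, edgeR adjusted p = 1.0) and at -0.33 without Vibrio female 1. The 6 scaffold glucan-binding genes were at -2.13 to -1.34 (SE 0.96 to 1.32). The 15 tested pattern recognition genes split into 1 higher and 14 lower between Vibrio sexes and 9 and 6 between control sexes. They split into 5 and 10 for Vibrio in males and 3 and 12 for the difference of effects. The scaffold genes were high and low in the same libraries, so such splits are not counts of separate genes. These comparisons share groups, so their values are not independent of each other.

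**Figure D4:**
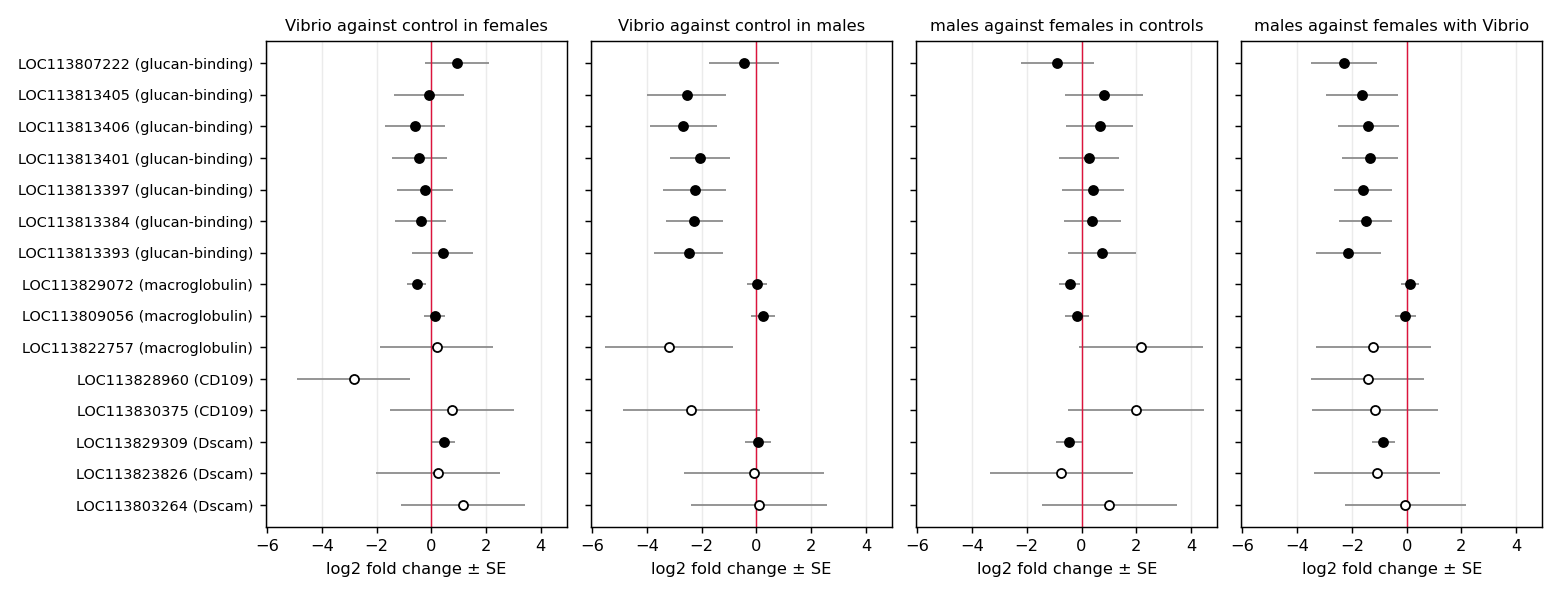
Log2 fold change ± SE from edgeR (x axis) of the 15 tested pattern recognition genes (y axis) in 4 comparisons; open points are genes under 1 CPM on average, whose fitted values depend on the prior count, and LOC113828960 is left out of the comparisons with control males, where it had 0 counts. The 6 scaffold glucan-binding genes lie between -2.67 and -2.05 in males, and no gene passed an adjusted p under 0.05.

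The pathways that these proteins feed were described from lists made by name. Of the 29 genes of the prophenoloxidase cascade, 24 were tested, as were 15 of 19 genes of Toll and IMD signalling and 7 of 11 macroglobulin and clot partners, and edgeR called 0 in either direction in each of the 5 comparisons. For Vibrio against control in females, the prophenoloxidase list had 8 higher and 16 lower with a median log2 fold change of -0.22, and in males 14 higher and 10 lower with a median of 0.08, against 0.05 and -0.03 over all genes. The clot and macroglobulin partners had medians of 0.64 in females and 0.42 in males, and the Toll and IMD list -0.06 and 0.16. Between control males and control females, the prophenoloxidase list had 4 higher and 20 lower with a median of -0.42, the Toll and IMD list 5 higher and 10 lower with a median of -0.17, and the clot and macroglobulin partners 0 higher and 7 lower with a median of -0.49, against -0.02 over all genes. Between Vibrio males and Vibrio females the 3 medians were -0.11, 0.0058 and -0.46, against -0.09 over all genes. For the difference between the Vibrio effects they were 0.19, 0.14 and -0.26, against -0.08 over all genes. In FPKM, prophenoloxidase-1 (LOC113827090), the enzyme at the end of the cascade, averaged 687 and the spaetzle gene LOC113810575, a Toll ligand in flies, 162, both above the mean of every glucan-binding gene. The list words also caught other lipoprotein receptor-related genes, and no gene named as a transglutaminase. Genes of that enzyme under another name would not have been caught, so the medians of the clot and macroglobulin partners do not cover them.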

How the data were processed

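The authors' deposited table gives raw counts and FPKM per gene for 11 hemocyte RNA libraries. Per the submitters' processing notes reads were trimmed with cutadapt 1.9 and checked with FastQC; the aligner, the counter, its strand setting and the build are not given in the sources. Counts were taken as raw because they are whole and sum to different totals. edgeR 4.0.16 (R 4.3.3) tested 14295 genes that passed filterByExpr; 4508 were left out. Counts were TMM-scaled, a robust quasi-likelihood model with 4 group means was fitted to all 11 libraries, and 5 two-sided contrasts were adjusted by Benjamini-Hochberg over all genes. SE is |log2 fold change| over the root of F. Correlations used 100000 permutations. DESeq2 1.42.0 was an alternative, beside RLE scaling, no filter, a replicate block, 2-group fits and leaving out each library. Genes given with full statistics were any called and, per comparison, the 2 tested genes of at least 1 CPM on average with the smallest p.

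The genes and lists were chosen with earlier results of these data known. The classes within the list were split by name; 9 genes that the marker words caught (such as tubulin polyglutamylases) were removed by name; and the hemocyanin and digestive enzyme sums, their correlations and their use as covariates were chosen after the values were seen.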

Additional observations from a re-analysis of the deposited data

How the results depend on the processing

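The number of these genes called by adjusted p was 0 in each of the 5 comparisons under every alternative run: RLE scaling, no filter, DESeq2, the 2-group fits (not possible for the difference of effects), the replicate block, the marker covariates and each left-out library (0 to 0). Over 15 same-numbered pairs the correlation of deviations from the group means was -0.574 to 0.498, and 5 exceeded 0.1. Differently numbered pairs ran from -0.498 to 0.479. Deviations from means of 2 or 3 libraries are tied to each other, so these values cannot decide whether the replicate numbers pair the samples. With the replicate block 0 genes were called. One direction reversed: LOC113813384 in males, at -2.27, was 0.0402 with the hemocyanin sum as a covariate (chosen after seeing the data), where LOC113813406 was -0.0756; the cause was not tested. Fitting males alone gave 5 of the 28 genes tested there an unadjusted p under 0.05, against 6.35% of all genes in that fit; all 5 lie on the glucan-binding scaffold (edgeR adjusted p = 0.65).

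Leaving out each library gave LOC113813384 in males -3.05 to -0.44, LOC113813406 -3.66 to -1.33, LOC113829072 in females -0.73 to -0.10, LOC113816597 between control sexes 0.17 to 0.79 and LOC113829309 between Vibrio sexes -1.16 to -0.33. Each kept its sign. Leaving out 1 control male leaves a single library, assumed to vary like the other groups. The hemocyanin correlations of the 6 scaffold genes stayed at 0.835 to 0.97 under every alternative. Those with the digestive enzyme sum passed the threshold in all settings for 4 of them. LOC113813393 (0.591 lowest) and LOC113813406 (0.601 lowest) lost it in 3 settings each, without control female 1, Vibrio female 2 or Vibrio male 1. LOC113807222 lost it without Vibrio female 1 (0.577). All these relations were chosen after the values had been seen, so passing the threshold is a description and not a test. The SE of 1.05 to 1.44 of the scaffold genes in males limits what could be called there.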
